A study of Caenorhabditis elegans with 6 samples.

Results

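Aquaporins are membrane channels that let water, and in some members glycerol, pass along its gradient. The array annotation gives 10 *C. elegans* aquaporin genes a probe set of their own: *aqp-1* to *aqp-8*, *aqp-10* and *aqp-11*. They are 10 of 17118 genes read in this way, and 11 of 22548 probe sets tested, because *aqp-2* is read by a pair of probe sets. Members were chosen by gene symbol alone, but the family was picked with the decrease of *aqp-1* after RPW-24 already known. The values, intervals and calls of this comparison are therefore a description of the family, and nothing is supported with them.

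Cultures of wild-type N2 animals were taken at the late L4 stage, the last larval one, and kept for 15 hours at 15°C in a liquid culture fed with *E. coli* OP50. RPW-24 animals received 70 µM RPW-24, a quinazoline diamine that protects nematodes from bacterial infection, and DMSO animals received the solvent, with the same final share of DMSO in both. Each treatment was given to 3 biological replicates, named by the letters G, H and I, with both treatments of a letter run in parallel and 1 Affymetrix array covering the genome for each. RNA came from whole animals, so all tissues are mixed, and fewer cells of a type cannot be told apart from less RNA per cell. Values are linear intensities after GC-RMA and quantile normalization by the authors, with a lowest value of 4.39, at which each array has 35.5% to 37.1% of its probe sets. A level can be compared between arrays for 1 probe set, not between probe sets. Array medians differed between the groups, as given under the processing.

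An aquaporin monomer is a bundle of membrane helices around a narrow pore, and the monomers assemble as tetramers. Worm members fall into aquaglyceroporins, which also conduct glycerol or group by sequence with those that do (*aqp-1*, *aqp-2*, *aqp-3*, *aqp-7* and *aqp-8*), water channels of the classical type (*aqp-4*, *aqp-5* and *aqp-6*), and divergent members (*aqp-10* and *aqp-11*). In *C. elegans* they are known from the intestine, the excretory canal, which clears water from the body, the body wall muscle and some neurons. Glycerol matters in this animal as the main solute that it accumulates under osmotic stress.

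In brief, *aqp-1* was about an order of magnitude dimmer after RPW-24, *aqp-10* was brighter, and the other 5 genes above the lowest intensity differed by smaller amounts. The remaining 3 genes, *aqp-3*, *aqp-5* and *aqp-6*, did not leave the lowest intensity on any of the 6 arrays. At a Benjamini-Hochberg adjusted p under 0.05 from limma, taken over all probe sets, 1 of the 11 aquaporin probe sets was higher in RPW-24 and 1 was lower. Over all 22548 probe sets, 2.42% were higher and 1.07% lower by the same call, which makes 3.49% in either direction. A filter that keeps probe sets whose log2 values average 5 or more left 9951, with 7 of the 11 aquaporin ones. In a fit of these, 3 aquaporin probe sets were called higher and 1 lower, where 9.55% of the 9951 were called higher and 6.76% lower.

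**Figure D1:**
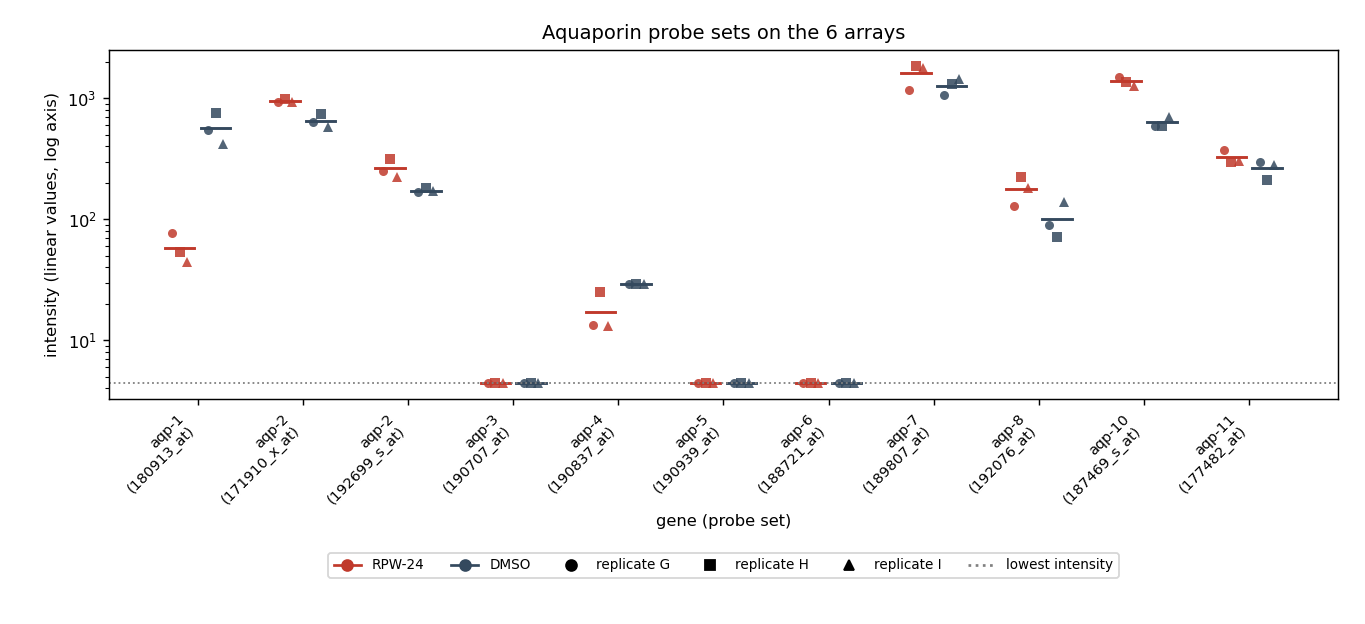
Intensity of the 11 aquaporin probe sets (horizontal axis) on the 3 RPW-24 arrays (red, left of each pair) and the 3 DMSO arrays (dark blue), on a log axis, with a symbol for each replicate letter and a bar at the mean of each group. The *aqp-1* points lie between 44.1 and 77.1 in RPW-24, against 421 to 753 in DMSO, and *aqp-3*, *aqp-5* and *aqp-6* lie on the dotted line of the lowest intensity.

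*aqp-1* (F32A5.5, probe set 180913_at) encodes a glycerol channel of the intestine that is known from work on the shortening of life by dietary glucose. Its intensity was 77.1, 53.3 and 44.1 on RPW-24 arrays G, H and I, against 542, 753 and 421 on the DMSO arrays. The groups were far apart, with the brightest RPW-24 array well below the dimmest DMSO array. The means were 58.2 ± 17.04 (SD, n = 3) in RPW-24 and 572 ± 168 (SD, n = 3) in DMSO. The log2 difference was -3.30 (standard error 0.31, 95% interval from -4.12 to -2.47), which is 9.82-fold lower in RPW-24. Within the replicates G, H and I the log2 differences were -2.81, -3.82 and -3.26, so the decrease was present in each. All 3 RPW-24 values were still above the lowest intensity. Of 17118 genes, 19 others (0.111%) were lower in RPW-24 by at least as much, and 17 of these passed the call.

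The adjusted p of *aqp-1* was 0.0132 in limma, given here as part of the fit over all probe sets and not as a test of a gene that was picked for it. With the replicate letter as a block it was 0.0842, and among the 9951 filtered probe sets it was 0.000914 without the block and 0.00248 with it. Without 1 array it was 0.0635 (DMSO G), 0.0506 (DMSO H), 0.0444 (DMSO I), 0.0305 (RPW-24 G), 0.0665 (RPW-24 H) and 0.0532 (RPW-24 I), with a log2 difference between -3.52 and -3.08.

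*aqp-2* (C01G6.1) is an aquaglyceroporin known from the excretory canal and the hypodermis, the layer that secretes the cuticle. On its brighter probe set (171910_x_at) the RPW-24 arrays G, H and I gave 934, 980 and 926, against 641, 744 and 578 on the DMSO arrays. On its dimmer probe set (192699_s_at) they gave 252, 315 and 223, against 166, 180 and 172 on the DMSO arrays. On both, every RPW-24 array was above every DMSO array. The log2 differences were 0.54 (standard error 0.10) and 0.59 (standard error 0.14), so the pair of probe sets differed from each other by less than the error of either. Within the letters G, H and I they were 0.54, 0.40 and 0.68 for the brighter probe set and 0.60, 0.81 and 0.38 for the dimmer one. Both probe sets carry a suffix that marks a possible match to several transcripts.

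Neither *aqp-2* probe set passed the call over all probe sets, with an adjusted p of 0.0776 for the brighter and 0.129 for the dimmer from limma. Among the 9951 filtered probe sets, both passed, at 0.021 and 0.036, and with the replicate block as well at 0.0295 and 0.046. Without the DMSO array of replicate H the brighter one also passed, at 0.0485. The call of *aqp-2* thus differed between these fits.

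*aqp-8* (K02G10.7, probe set 192076_at) is an excretory canal channel whose transcription there is known to need the POU homeobox factor CEH-6. It was at 129, 223 and 179.8 on the RPW-24 arrays G, H and I, against 89.02, 71.7 and 140 on the DMSO arrays. The groups overlapped, since the RPW-24 array of G lay below the DMSO array of I. The means were 177 ± 47.3 (SD, n = 3) in RPW-24 and 100.1 ± 35.2 (SD, n = 3) in DMSO. The log2 difference was 0.85 (standard error 0.34, 95% interval from -0.05 to 1.74, adjusted p = 0.363 from limma). All 3 letters gave a positive difference, at 0.53, 1.64 and 0.37, and the size rested mostly on H.

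*aqp-7* (M02F4.8, probe set 189807_at) is a muscle aquaglyceroporin. It was at 1181, 1854 and 1774 on the RPW-24 arrays G, H and I, against 1060, 1307 and 1432 on the DMSO arrays. The groups overlapped, and replicate G was the dimmest array of each group. The log2 difference was 0.32 (standard error 0.23, 95% interval from -0.27 to 0.92, adjusted p = 0.704 from limma), with 0.16, 0.50 and 0.31 within the letters. The interval spans 0, and its upper end allows a change close to that seen in *aqp-8*.

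*aqp-3* (Y69E1A.7), an excretory canal aquaglyceroporin, had the lowest intensity of 4.39 on all 3 RPW-24 and all 3 DMSO arrays. No change could be read for it in either direction.

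Among the classical water channels only *aqp-4* (F40F9.9, probe set 190837_at), which is known from the intestine, was above the lowest intensity. It was dim, at 13.4, 25.2 and 13.2 on the RPW-24 arrays G, H and I, against 29.3 on each of the 3 DMSO arrays. Every RPW-24 array was below the DMSO arrays, but the array of H only slightly. The log2 difference was -0.83 (standard error 0.29, adjusted p = 0.282 from limma), with -1.13, -0.21 and -1.15 within the letters. The DMSO value was the same to the last digit on all 3 arrays, as it was for 1858 of the 13980 probe sets above the lowest intensity on every array, so the spread in DMSO is not measured here. Without the RPW-24 array of replicate H the log2 difference was -1.14 and the adjusted p 0.00262, so 1 array decided this call. *aqp-5* (C35A5.1) was at 4.39 on all 6 arrays, and so was *aqp-6* (C32C4.2), which is known from sensory neurons of the head.

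The divergent member *aqp-10* (ZK1321.3, probe set 187469_s_at) rose. It was at 1497, 1363 and 1266 on the RPW-24 arrays G, H and I, against 595, 593 and 704 on the DMSO arrays. The dimmest RPW-24 array was well above the brightest DMSO array, and replicates within a group lay close together. The means were 1375 ± 116 (SD, n = 3) in RPW-24 and 631 ± 63.8 (SD, n = 3) in DMSO. The log2 difference was 1.13 (standard error 0.10, 95% interval from 0.86 to 1.39), or 2.18-fold, with 1.33, 1.2002 and 0.85 within the letters. Of 17118 genes, 436 others (2.55%) were higher in RPW-24 by at least as much. Its probe set also carries a suffix for a possible match to several transcripts.

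The adjusted p of *aqp-10* was 0.0111 in limma, 0.121 with the replicate letter as a block, 0.00113 among the 9951 filtered probe sets, and 0.0092 among these with the block. Without 1 array it passed in 3 of 6 cases, and missed without DMSO G (0.0531), DMSO H (0.0597) and RPW-24 H (0.057).

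*aqp-11* (ZK525.2, probe set 177482_at), the other divergent member, was at 376, 295 and 304 on the RPW-24 arrays G, H and I, against 296, 213 and 280.2 on the DMSO arrays. The groups overlapped by a narrow margin, since the RPW-24 array of H was just under the DMSO array of G. The log2 difference was 0.31 (standard error 0.17, 95% interval from -0.14 to 0.76, adjusted p = 0.536 from limma), with 0.34, 0.48 and 0.12 within the letters.

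**Figure D2:**
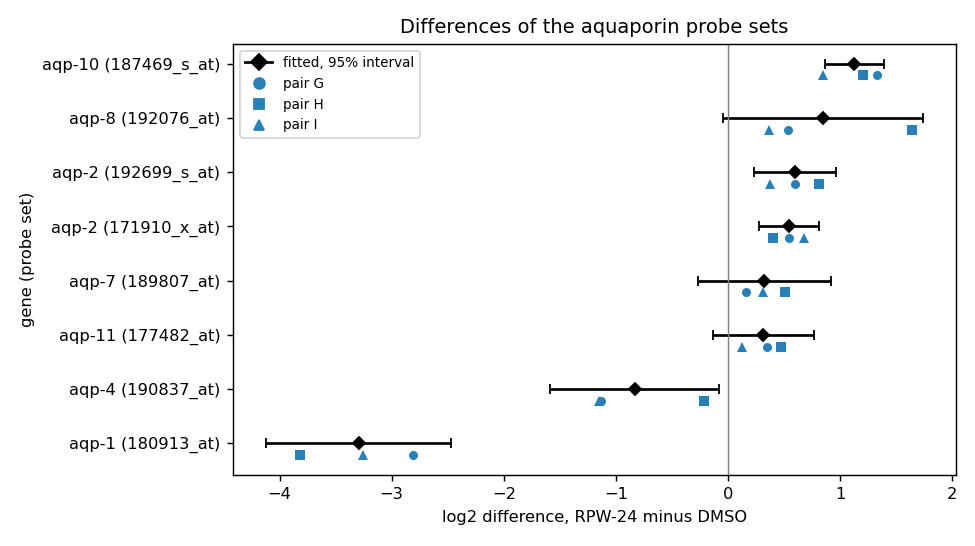
Log2 difference, RPW-24 minus DMSO (horizontal axis), of the 8 aquaporin probe sets above the lowest intensity, with black diamonds and bars for the fitted value and its 95% interval (not adjusted for the number of probe sets) and blue symbols for the replicate letters G, H and I. The *aqp-1* values lie near -3.30, apart from all others, and 6 probe sets lie above 0 in all 3 letters.

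Read side by side, the 7 genes above the lowest intensity did not share a direction. By their brighter probe set 5 had a fitted difference above 0 and 2 below, with a median of 0.32. Over all probe sets above the lowest intensity on at least 1 array the median was -0.01, and over the 9951 filtered ones it was -0.07. The intestinal members *aqp-1* and *aqp-4* were the ones below 0. Every RPW-24 array was above every DMSO array on 3 of the 8 probe sets (both of *aqp-2*, and *aqp-10*) and below on 2 (*aqp-1* and *aqp-4*). Over all 22548 probe sets this held for 8.09% in the upward and 10.4% in the downward direction, but 7139 of them were at the lowest intensity on every array and cannot separate. Among the 9951 filtered probe sets, which leave out *aqp-4*, the shares were 15.3% and 22.1%. All 3 letters gave a positive difference on 6 of the 8 aquaporin probe sets, with *aqp-2* counted by both of its own. All 6 were among the 7 that passed the filter, and 20.8% of all filtered probe sets were positive in this way. At the thresholds of the study, a change of 3-fold or more with an unadjusted p under 0.025 (here from limma), 1 aquaporin probe set passed (*aqp-1*, lower) and none was higher. Of all probe sets, 1.85% passed in either direction, made up of 0.381% of all that were lower and 1.47% of all that were higher.

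Other genes of solute balance were read from a list of 26 that handle glycerol, trehalose or inositol or act in the osmotic response, of which 17 were measured and 15 were above the lowest intensity. In limma 0 were higher and 1 was lower at an adjusted p under 0.05, where 2.42% and 1.07% of all probe sets were. The 9951 filtered probe sets hold 13 of the 17, and in their fit 1 was called higher and 3 lower, where 9.55% and 6.76% of the 9951 were. The median log2 difference was -0.01, or -0.06 over the 15 above the lowest intensity. Without overlap between the groups, 2 were higher and 3 lower, where 8.09% and 10.4% of all probe sets were (15.3% and 22.1% of the filtered ones). Before adjustment, at a p under 0.05, there were 1 higher and 3 lower, in limma and in the methods' t-test alike, whose form for the arrays is not stated and which was run here without pairing on the linear values, assuming equal variances. The one called over all probe sets was *gpdh-3*, a glycerol-3-phosphate dehydrogenase gene by its name, at 931, 1038 and 1073 in RPW-24, against 1350, 1298 and 1340 in DMSO (log2 difference -0.39, standard error 0.06, adjusted p = 0.0497 from limma, and 0.187 with the replicate block).

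Values are given for further genes of this list, all singled out after their values were seen and none called over all probe sets. *gpdh-1*, the osmotically induced enzyme of glycerol synthesis, was at 195, 239 and 184 on the RPW-24 arrays G, H and I, against 583, 337 and 683 on the DMSO arrays. Its log2 difference was -1.32 (standard error 0.31, adjusted p = 0.125 from limma, and 0.343 with the replicate block). *R11F4.1*, a glycerol kinase gene, was at 155, 211 and 225 in RPW-24, against 102, 99.3 and 79.6 in DMSO. Its log2 difference was 1.06 (standard error 0.19, adjusted p = 0.0677 from limma, and 0.248 with the replicate block). Neither pair of groups overlapped, and among the 9951 filtered probe sets their adjusted p were 0.0272 and 0.0128. With the replicate block among these they were 0.0601 and 0.0382.

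A list of 43 ion transport genes held chloride channels, cation-chloride cotransporters, sodium pumps, proton exchangers and the subunits of the vacuolar proton pump, and 40 were measured. In limma 1 was higher and 0 were lower at an adjusted p under 0.05, where 2.42% and 1.07% of all probe sets were. Before adjustment there were 9 and 0, and the methods' t-test gave 6 and 0. The 9951 filtered probe sets hold 30 of the 40. In their fit 5 were called higher and 0 lower, where 9.55% and 6.76% of the 9951 were. The one called over all probe sets was *vha-11*, a subunit of the proton pump, at 3853, 3883 and 3774 in RPW-24, against 3127, 2845 and 3089 in DMSO (log2 difference 0.35, standard error 0.04, adjusted p = 0.0277 from limma, and 0.151 with the replicate block). The median of the list was 0.03, or 0.06 over the 38 above the lowest intensity. Without overlap, 11 of the 40 were higher and 0 lower, where 8.09% of all probe sets were higher and 10.4% lower in this way (15.3% and 22.1% of the filtered ones, which hold 30 of the 40).

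**Figure D3:**
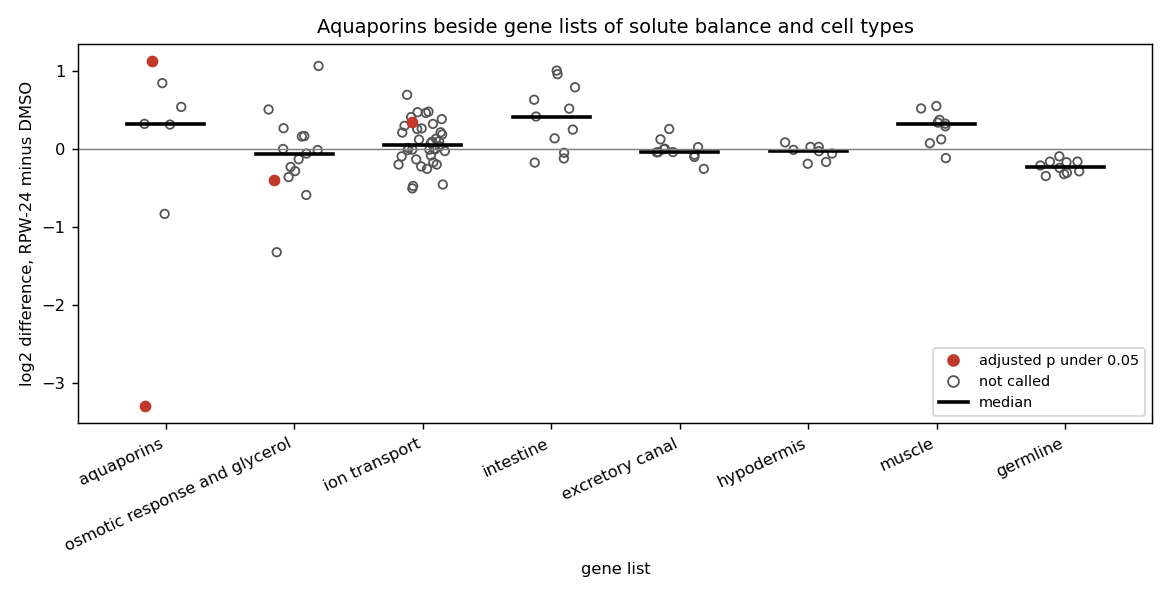
Log2 difference, RPW-24 minus DMSO (vertical axis), of the genes of each list that are above the lowest intensity, 1 point a gene, with filled red points for an adjusted p under 0.05 from limma and a black bar at the median. *aqp-1* at -3.30 lies below every gene of the other lists shown, whose lowest is *gpdh-1* at -1.32.

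The tissues that the aquaporins are known from were checked with marker lists. Of 11 intestinal markers, all above the lowest intensity, none was called in limma, with 5 higher and 0 lower before adjustment (4 and 0 in the methods' t-test). In the fit of the 9951 filtered probe sets, which hold all 11, 3 were higher and 0 lower at an adjusted p under 0.05. Of the 9951, 9.55% were called higher and 6.76% lower. The median of the 11 markers was 0.42, and 6 were higher without overlap and 1 lower (15.3% and 22.1% of the filtered probe sets were). Their summed intensity was 56750 to 62260 in RPW-24 and 53490 to 64240 in DMSO. Most of each sum came from *asp-1*, the 1 marker lower without overlap, at 39040 to 40130 in RPW-24 and 40480 to 47640 in DMSO. The sums therefore say little about the other markers. The log2 difference of *aqp-1* was -3.30. The part of intestinal RNA in the *aqp-1* value was not tested. *elt-2*, the GATA factor that defines the intestine, had a log2 difference of 0.14 (standard error 0.07).

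For *aqp-7*, 10 muscle markers had a median of 0.31 (0.325 over the 9 above the lowest intensity), close to its own 0.32. In limma none of them was called, with 3 higher and 0 lower before adjustment (2 and 0 in the methods' t-test). Of these, 5 were higher without overlap, as 8.09% of all and 15.3% of the filtered probe sets were, *hlh-1* was at the lowest intensity throughout, and the sums were 27990 to 33630 in RPW-24 and 20650 to 26670 in DMSO. The part of muscle RNA in the *aqp-7* value was not tested.

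For *aqp-2* and *aqp-8*, 12 excretory canal markers had a median of -0.02 (-0.04 over the 11 above the lowest intensity), with sums of 574 to 613 in RPW-24 and 538 to 623 in DMSO. In limma none was called, and 0 were higher and 0 lower before adjustment, also in the methods' t-test. This cell was read weakly: *sulp-5* was at the lowest intensity throughout, *pgp-12*, a defining marker, averaged 4.39 in RPW-24 and 4.398 in DMSO, and 4 of the 12 were among the 9951 filtered probe sets. *ceh-6*, the known regulator of *aqp-8*, was at 4.96 ± 0.156 (SD, n = 3) in RPW-24 and 5.22 ± 0.323 (SD, n = 3) in DMSO, too near the lowest intensity to read. Of 10 hypodermal markers, none was called in limma, with 0 higher and 1 lower before adjustment, as in the methods' t-test. Their median was -0.01, or -0.02 over the 8 above the lowest intensity.

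Germline RNA makes up much of a young adult. Its 10 markers had a median of -0.23, with 7 lower without overlap, as 10.4% of all and 22.1% of the filtered probe sets were, and sums of 77000 to 84190 in RPW-24 and 91460 to 94630 in DMSO. In limma none was called, with 0 higher and 6 lower before adjustment, as many as in the methods' t-test. In the fit of the 9951 filtered probe sets, which hold all 10, 0 were higher and 3 lower at an adjusted p under 0.05. Of the 9951, 9.55% were called higher and 6.76% lower. The part of germline RNA in the aquaporin values was not tested. Of 9 neuronal markers, 2 were higher at an adjusted p under 0.05 (*egl-3* and *ric-4*) and none lower, where 2.42% and 1.07% of all probe sets were. With the replicate block neither passed, at an adjusted p of 0.175 for *egl-3* and 0.124 for *ric-4* from limma. Without overlap, 4 of the 9 were higher and 0 lower, where 8.09% and 10.4% of all probe sets were (15.3% and 22.1% of the filtered ones). The filtered probe sets hold 6 of the 9, and in their fit 3 were called higher and 0 lower, where 9.55% and 6.76% of the 9951 were.

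A list of 5 genes known to act on aquaporin expression or on the intestine in other *C. elegans* work was read too, of which *ceh-6* and *daf-2* were too near the lowest intensity to read. *daf-16*, the FOXO factor under insulin signalling on which *aqp-1* is known to depend, was at 1214 ± 240.3 (SD, n = 3) in RPW-24 and 1196 ± 139 (SD, n = 3) in DMSO. *hsf-1*, the heat shock factor that acts with it, was at 878 ± 126 (SD, n = 3) in RPW-24 and 988 ± 127 (SD, n = 3) in DMSO. Transcript levels do not show the activity of either factor. Of the 5 regulators listed, limma called none, and 0 were below an unadjusted p of 0.05 in limma, as in the methods' t-test.

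The genes whose pattern over the 6 arrays was most like that of *aqp-1* were sought among 17117 others, by the root mean square difference of log2 values, each taken from the gene's own DMSO mean. They were *irg-3* (0.36), *spp-1* (0.38), *spp-23* (0.49), *ilys-3* (0.49) and *clec-51* (0.51). *irg-3* is named as an infection response gene, *spp-1* and *spp-23* encode saposin-like proteins, a class with antimicrobial members, *ilys-3* an invertebrate-type lysozyme, and *clec-51* a C-type lectin. *spp-1* was at 357 ± 78.1 (SD, n = 3) in RPW-24 and 2967 ± 561 (SD, n = 3) in DMSO, a log2 difference of -3.06 (standard error 0.22). *ilys-3* was at 11.71 ± 2.76 (SD, n = 3) in RPW-24 and 81.8 ± 25.8 (SD, n = 3) in DMSO, a log2 difference of -2.79 (standard error 0.31). This measure is ruled by the difference between the groups, so it lists genes that fell by a like amount.

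For *aqp-10* the nearest were *gst-42* (0.08), *acr-18* (0.09), *R03A10.5* (0.10), *cyp-32A1* (0.10) and *clec-83* (0.11). *gst-42* encodes an enzyme of tyrosine breakdown, *acr-18* a subunit of the acetylcholine receptor family, *cyp-32A1* a cytochrome P450 and *clec-83* a C-type lectin. *gst-42* was at 1634 ± 82.2 (SD, n = 3) in RPW-24 and 748 ± 42.8 (SD, n = 3) in DMSO, a log2 difference of 1.13 (standard error 0.06).

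**Figure D4:**
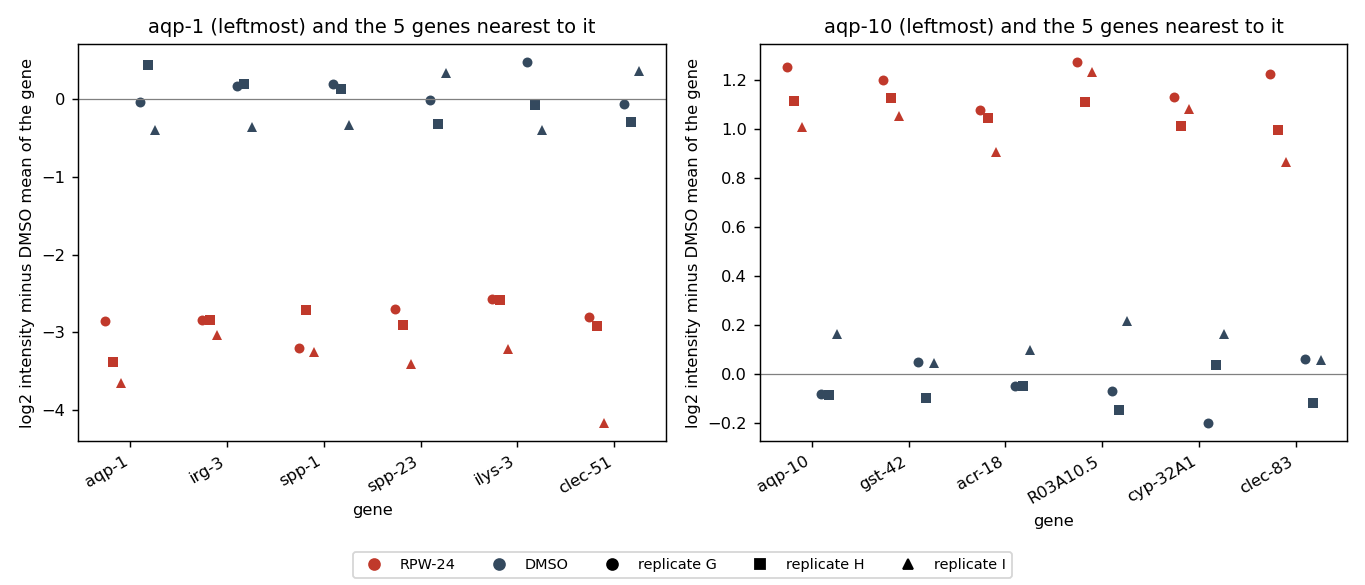
Log2 intensity minus the gene's own DMSO mean (vertical axis) on the 3 RPW-24 arrays (red, left of each pair) and the 3 DMSO arrays (dark blue), for *aqp-1* and the 5 genes nearest to it (left panel) and *aqp-10* and the 5 nearest (right panel), with a symbol for each replicate letter. The RPW-24 points of *aqp-1* lie between -3.65 and -2.85, and those of *aqp-10* between 1.01 and 1.25.

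The protein-coding genes next to each member on the chromosome were looked up in the RefSeq annotation. Beside *aqp-1*, *ctsa-3.1* had a log2 difference of 0.37 (adjusted p = 0.45 from limma, standard error 0.18) and *skpo-3* one of -0.51 (standard error 0.28, adjusted p = 0.55), so neither passed the call that *aqp-1* did. Beside *aqp-10*, *shk-1* was near the lowest intensity in both groups and *ZK1321.4* had a log2 difference of 0.37 (standard error 0.26, adjusted p = 0.703 from limma). Beside *aqp-11*, the neuropeptide gene *flp-15* was at 55.5 ± 10.2 (SD, n = 3) in RPW-24 and 18.6 ± 3.63 (SD, n = 3) in DMSO, a log2 difference of 1.58 (standard error 0.21). It passed the call (adjusted p = 0.0333 from limma), and *aqp-11* did not. Beside *aqp-5*, the UDP-glucuronosyltransferase gene *ugt-33* rose to 722 ± 208 (SD, n = 3) in RPW-24, against 4.52 ± 0.113 (SD, n = 3) in DMSO, while *aqp-5* lay at the lowest intensity on every array.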

How the data were processed

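Transcript levels were measured on 6 Affymetrix arrays of *C. elegans* RNA. The deposited values are linear intensities that the authors computed in GenePattern by GC-RMA (version not stated), followed by quantile normalization. Whether all arrays were normalized together is not stated. Array medians were 9.83 to 9.98 in RPW-24 and 8.94 to 9.04 in DMSO. The deposited values thus do not have the same distribution on all 6 arrays, and this difference runs along the treatment. Its cause was not tested. Of all calls, 69.3% were higher in the main fit and 42.2% after further quantile normalization of the 6 arrays. Precision is limited by the number of arrays. Of 22625 probe sets, 77 control sets were left out. Probe sets were named from the array annotation, with symbols updated through RefSeq (WBcel235).

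Log2 intensities were compared by lmFit and by eBayes with a variance trend (limma 3.58.1, R 4.3.3), without pairing, over all 22548 probe sets, with Benjamini-Hochberg adjustment. With 3 arrays against 3, an exact permutation test cannot give a p below 0.1. For a gene with more than 1 probe set, each is given, or the one of highest mean. The fit was tested on simulated data of this design.

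The submitters' design text says that RPW-24 and DMSO exposures of a biological replicate were run in parallel, so the replicate letters were taken to pair the arrays. Deviations from group means correlated at 0.086 (G), 0.137 (H) and 0.133 (I) within letters and from -0.0888 to -0.0315 between letters. Named genes are all members, called members of the lists (up to 4 a direction), and the 5 genes nearest in pattern to each called member. Beyond this rule *gpdh-1*, *R11F4.1*, *hmit-1.3*, *vha-16*, *clh-6*, *nhx-3*, *nkb-3* and *asp-1* were named after their values were seen. The regulators, the defining markers, and *sulp-5* and *hlh-1* at the lowest intensity were named whatever their call. The hypodermal markers *sqt-1* and *che-14* and the neuronal marker *rgef-1* were at the lowest intensity on every array as well. Members and lists were chosen with earlier results of these data known. Counts at an unadjusted p under 0.05 are given without the share over all probe sets, so they have no background to be read against. Neighbouring genes were added after the data were seen. Alternatives were the replicate block, each array left out, no variance trend, a filter on log2 values averaging 5 or more, values under 32 set to 32, median centring, further quantile normalization, the methods' t-test (taken here as unpaired, with equal variances, on linear intensities, since the methods name a modified t-test without its form) and the study's thresholds applied to the p from limma. The block with the filter was added after seeing the data.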

Additional observations from a re-analysis of the deposited data

How the results depend on the processing

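Fitted differences of the 8 aquaporin probe sets above the lowest intensity kept their sign under every alternative that gave a value, and in 109 such refits 89 stayed on the same side of an adjusted p of 0.05, 11 lost the call and 9 gained it. *aqp-4* has no value with intensities under 32 set to 32, where all its arrays tie, or with the filter on the mean. Aquaporin probe sets called higher were 1, and lower 1. With the replicate block they were 0 and 0 in limma (4 and 1 at an unadjusted p under 0.05), and with the methods' t-test 0 and 0 (3 and 2). At the study's thresholds 0 were higher. Over probe sets whose log2 values average 5 or more, 3 were higher, and 3 with the block as well. With arrays centred on their medians 3 were higher and 5 lower, the 3 probe sets at the lowest intensity among them, since this step shifts all differences by -0.14. Without 1 array 0 to 1 were higher and 0 to 1 lower.

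Over all probe sets, 545 higher and 242 lower (69.3% higher) became 166 and 27 with the replicate block, 950 and 673 with the filter on the mean, 937 and 427 with both, 1112 and 14480 (7.13% higher) with median centring, 177 and 57 with the methods' t-test, and 332 and 86 at the study's thresholds. There were 594 higher and 814 lower (42.2% higher) after further quantile normalization, and 144 lower with values under 32 set to 32. Without 1 array there were 274 to 390 higher and 72 to 156 lower.

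Of 57 solute and ion transport genes, 1 was higher and 1 lower. They became 0 and 0 with the replicate block (9 and 6 at an unadjusted p under 0.05 in limma), 0 and 0 with the methods' t-test (7 and 3), and 0 and 0 at the study's thresholds. They were 6 and 3 with the filter on the mean, with or without the block, but not the same genes throughout. With the block *gpdh-1* (0.0601), *hmit-1.3* (0.0535) and *vha-16* (0.0804) missed the call by their adjusted p from limma. *clh-6* and *nhx-3* (lower, 0.0465 and 0.0436) and *nkb-3* (higher, 0.0402) passed with the block only. With median centring the counts were 6 and 19. The lower count was 0 without the variance trend (3 at an unadjusted p under 0.05), 0 with values under 32 set to 32 (3), and 2 after further quantile normalization. Without 1 array there were 0 to 1 higher and 0 to 1 lower. The causes were not tested. No change can be seen in probe sets at the lowest intensity.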
